A study of Homo sapiens with 9 samples.

Results

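Dynactin is the large partner complex of cytoplasmic dynein-1, and activating adaptors are the coiled-coil proteins that join dynein, dynactin and a cargo. The genes described here are 34 of the 38179 entries of the count table, taken by gene name: 12 dynactin genes and 22 genes for activating or candidate adaptors. All 34 were found, and 33 of them were tested, because HOOK1 had only 2 to 12 counts per library and lay under the expression minimum (a log2 CPM above -2 in at least 1 of the 9 libraries).

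PolyA RNA came from the human osteosarcoma line U-2 OS after transfection with Cas9 mRNA and 1 of 3 guides: a non-targeting control guide (NTC), a guide cutting XCR1 (crXCR1), a chemokine receptor gene chosen to report on the double-strand break alone, and a guide cutting SUGP1 (crSUGP1), which encodes a nuclear protein predicted to bind RNA. There were 3 independent experiments with 1 library per guide in each, giving 3 libraries per group and 9 in all. The cells were populations transfected with 1 guide each, not clones, and each group rests on 1 guide. The paper gives times from transfection for its imaging assays, and none was found for the RNA. The question was whether disruption of SUGP1 alters the mRNAs of the dynein machinery.

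Dynein-1 walks toward the minus ends of microtubules, but by itself it moves poorly. In dynactin, a short filament of the actin-related protein Arp1 is capped at its barbed end by CapZ and at its pointed end by a small complex of its own, and a shoulder carries the projecting arm of p150Glued. An adaptor lies along this filament and holds dynein to it, while its other end binds the cargo, for example a Rab GTPase on a vesicle, a mitochondrial receptor or a kinetochore complex.

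The site cut by the crSUGP1 guide is shown because each comparison with crSUGP1 starts from it. It lies in coding exon 8 of the 14 exons of the canonical SUGP1 transcript, on the plus strand of GRCh38 at chr19:19297309-19297331. The capitals mark the PAM.
crSUGP1 guide 1: tacttgtacccttggctattGGG

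The libraries held 68712738 to 107952835 counts, and the 34 genes together took 0.259% to 0.273% of them. SUGP1 mRNA was at 6.52 to 7.87 CPM (each count relative to the library total after TMM scaling) in the crSUGP1 libraries and at 28.2 to 31.6 CPM in the 6 control libraries, with no overlap. Of 8 mesenchymal and osteoblast markers, 7 were above 1 CPM in every library, whereas TWIST1 had 3 counts over all 9 libraries. Of 6 leukocyte markers, 0 were above 1 CPM in every library and 2 were at 0, with summed levels of 1.02 to 1.72 CPM, and of 3 endothelial markers 1 was, CDH5 (1.53 to 2.76 CPM). Of 5 epithelial markers, 3 were above 1 CPM in every library, CLDN4 (14.6 to 22.3 CPM) among them. Of 4 neuronal markers, 3 were, RBFOX3 (14.0 to 22.3 CPM) among them. The summed CPM of each marker list overlapped between the 3 groups, from 23.9 to 38.2 for the epithelial list and from 24.5 to 31.9 for the neuronal one, and their part in the results was not tested.

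Dynactin genes were expressed well above the typical gene and most adaptor genes nearer to it. Levels of different genes are given as CPM per kilobase of the canonical GENCODE v44 transcript, averaged over the 9 libraries. The 12 dynactin genes had a median of 48.6, from 4.20 for DCTN5 to 144 for CAPZB, and 11 of them lay above the median of all genes tested, 4.28. The 22 adaptor genes had a median of 7.18, from 0.0112 for HOOK1 to 41.5 for NUMA1, and 14 lay above the median of all genes.

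**Figure D1:**
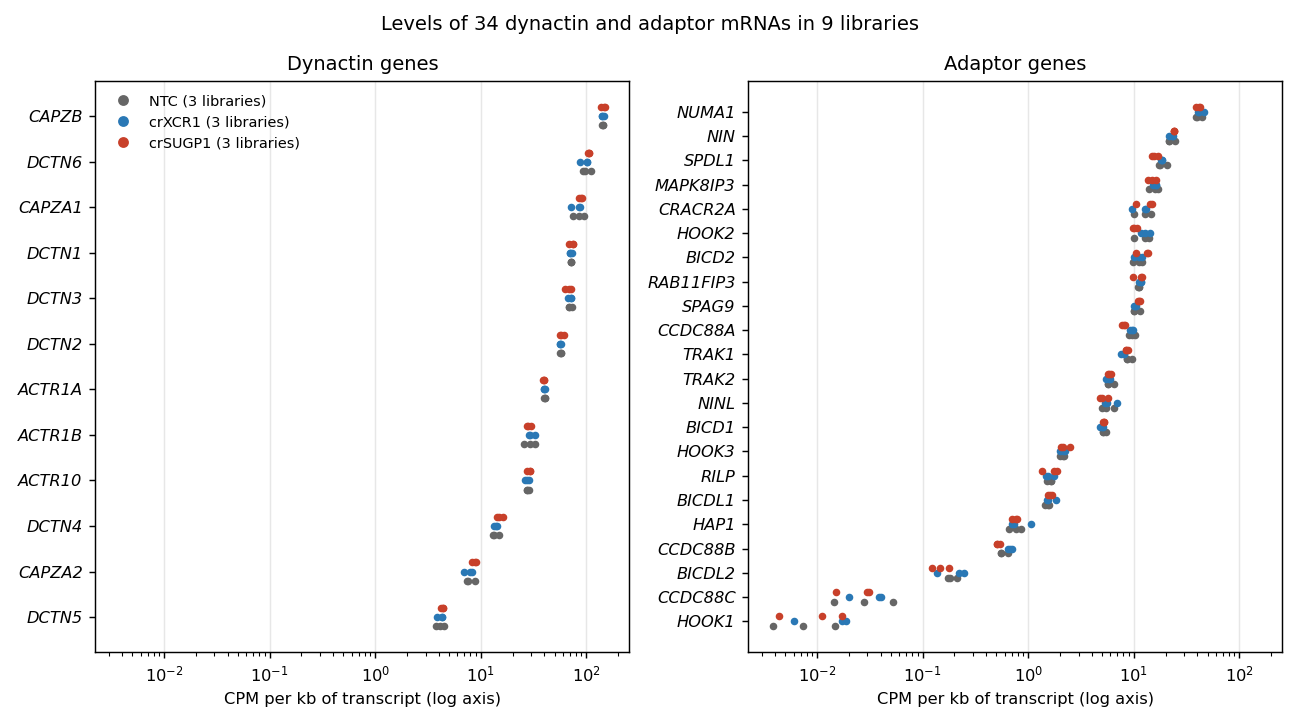
Level of each of the 34 mRNAs in each of the 9 libraries, as CPM per kilobase of the canonical transcript on a log axis, with dynactin genes on the left and adaptor genes on the right. Genes are ordered by mean and colours mark the group. The dynactin genes span 4.20 to 144 and the adaptor genes 0.0112 to 41.5. Within most genes the 3 groups lie close together, while the libraries of HOOK1 (0.0038 to 0.0188) and CCDC88C (0.0144 to 0.0525) spread most.

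Within dynactin, CAPZB, the beta subunit of the barbed-end cap, stood first at 143 ± 1.67 CPM per kilobase (SD, n = 3) in NTC cells. According to the paper, CAPZB also caps F-actin, so its level need not belong to dynactin alone. The pointed-end subunit DCTN6 (100.3 ± 8.91) and the cap subunit CAPZA1 (84.9 ± 10.8) followed with overlapping libraries, then p150Glued, encoded by DCTN1 (71.8 ± 0.505), and the p24 shoulder subunit DCTN3 (69.9 ± 2.69), which also overlapped. The p50 dynamitin gene DCTN2 stood at 56.7 ± 0.823. The Arp1 genes ACTR1A and ACTR1B were at 40.5 ± 0.483 and 29.2 ± 3.49, the latter overlapping the pointed-end gene ACTR10 (27.8 ± 0.626). DCTN4 (13.8 ± 0.855), CAPZA2 (7.91 ± 0.734) and DCTN5 (4.12 ± 0.349) were lowest. Neighbours in this order overlapped in 3 of 11 cases in NTC cells. The order depends on the transcript length used: per kilobase of all annotated exons, CAPZB stood eighth of the 12 and CAPZA1 first.

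Among the adaptors, NUMA1, the spindle-pole protein that recruits dynein in mitosis, was highest at 41.2 ± 2.86 CPM per kilobase in NTC cells (SD, n = 3). Its exons overlap those of genes on the opposite strand, so its level is uncertain. Among these is a long noncoding RNA at 101 CPM, which covers 18.1% of the NUMA1 exons. NIN, a centrosomal EF-hand protein, followed NUMA1 at 22.6 ± 1.85. SPDL1, which brings dynein to kinetochores, was at 18.6 ± 1.90 and MAPK8IP3 (JIP3) at 15.6 ± 1.55. From MAPK8IP3 down to TRAK1, each gene overlapped the next: the order was CRACR2A, HOOK2, RAB11FIP3, BICD2, SPAG9 (JIP4), CCDC88A and TRAK1, between 12.5 ± 2.20 for CRACR2A and 8.96 ± 0.527 for TRAK1. Of the 21 pairs of neighbours, 11 overlapped. The adaptor order also depends on the transcript length used. Per kilobase of all annotated exons, averaged over all libraries, NUMA1 and SPDL1 kept ranks 1 and 3 among the adaptors. BICD2 then stood at rank 2, RAB11FIP3 at 4, NIN at 5, CRACR2A at 12 and CCDC88A at 13.

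Paralogs differed widely in level. HOOK2 had a mean over the 9 libraries of 11.8 CPM per kilobase, HOOK3, which links dynein to endosomes through the FHF complex, 2.16 and HOOK1 0.0112. The size of such gaps depends on the transcript length used: per kilobase of all annotated exons HOOK2 was at 5.04 and HOOK3 at 2.03, and without length the pair stood at 30.0 and 30.9 CPM. BICD2, the adaptor for Rab6 vesicles, stood at 11.6 beside 5.14 for BICD1, 1.58 for BICDL1 and 0.180 for BICDL2. The mitochondrial adaptors TRAK1 and TRAK2 were at 8.49 and 5.88. Of the Girdin family, CCDC88A (Girdin) was at 9.08, CCDC88B at 0.589 and CCDC88C at 0.0300. The lysosomal adaptor RILP was at 1.62 and HAP1, the partner of huntingtin, at 0.782. These 5 genes were under 1 CPM per kilobase: HAP1, CCDC88B, BICDL2, CCDC88C and HOOK1.

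No dynactin or adaptor gene met the call in any comparison. The call was an adjusted p of at most 0.05 (edgeR quasi-likelihood test over 21071 genes, Benjamini-Hochberg) together with a log2 fold change of 0.5 or more in size. Against NTC, 0 of 33 genes were called in crSUGP1 cells, where 0.783% of all genes were. Against crXCR1, 0 of 33 were called, where 0.774% of all genes were. Between crXCR1 and NTC the count was 0 of 33, as it was over all genes (0%). With the adjusted p alone, edgeR still gave 0 of 33 in each comparison, where 1.26%, 1.43% and 0% of all genes passed. DESeq2, which gave an adjusted p for 31, 31 and 27 of the genes, also called 0 in each, where it called 1.33%, 1.46% and 0% of all genes. At an unadjusted p under 0.05, edgeR and DESeq2 each gave 3, 4 and 1 of the genes in these comparisons, where edgeR gave 13.2%, 16.1% and 1.34% of all genes and DESeq2 12.9%, 15.8% and 1.06%.

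**Figure D2:**
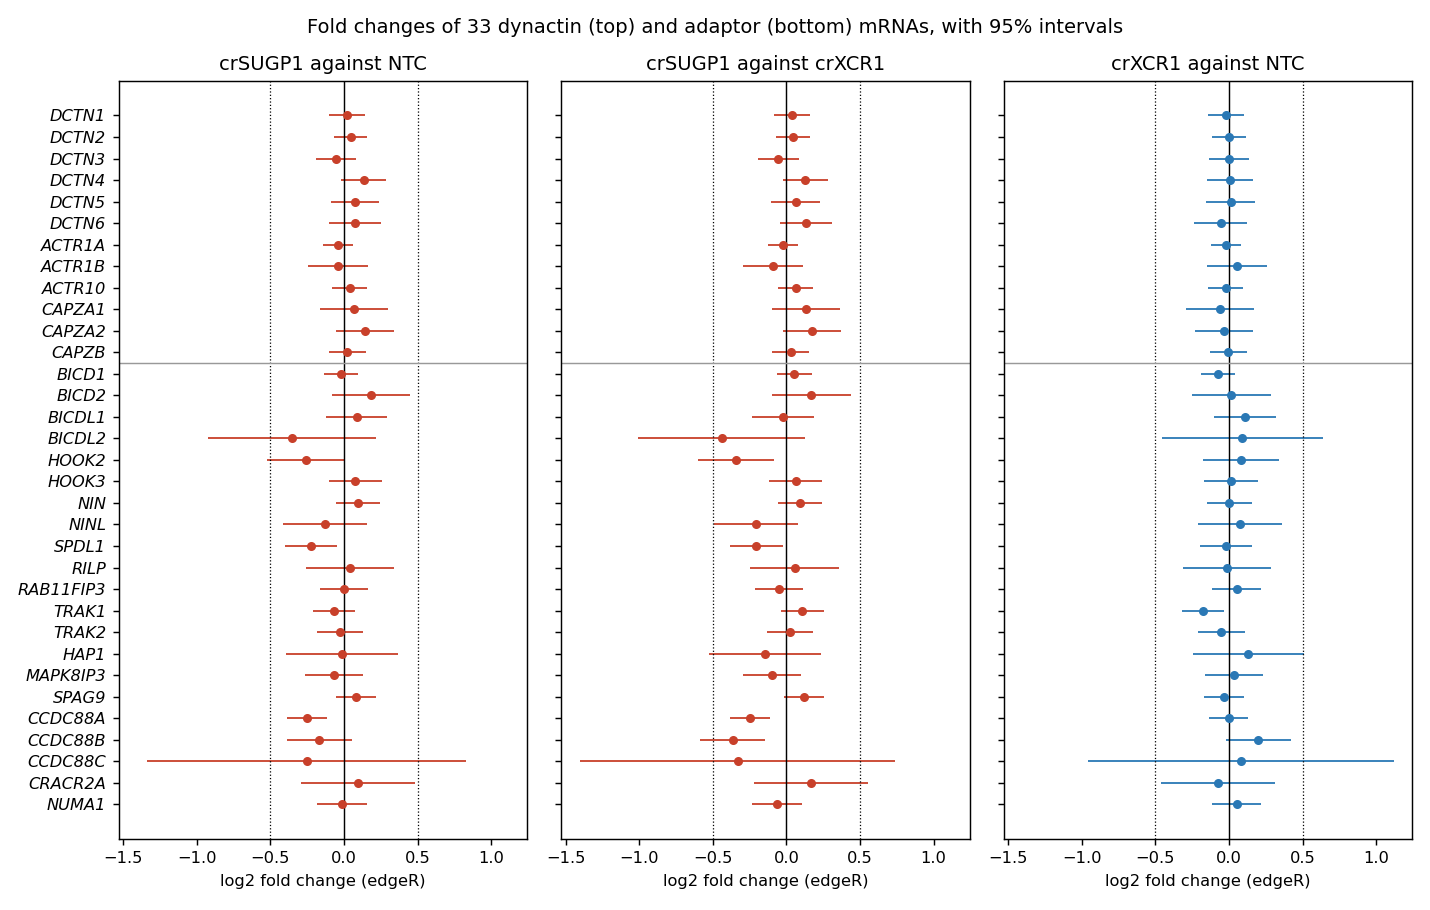
Log2 fold change from edgeR with its 95% interval for the 33 genes tested, in 3 panels for the 3 comparisons, with dynactin genes above the grey line and adaptor genes below it. Dotted lines mark the fold threshold of 0.5; every dynactin interval lies between them, and the widest intervals belong to CCDC88C and BICDL2.

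The dynactin genes were measured precisely enough to bound their differences. All 12 had 95% intervals of the log2 fold change inside ±0.5 in all 3 comparisons. The bounds ran from -0.24 to 0.34 for crSUGP1 against NTC, from -0.29 to 0.37 against crXCR1 and from -0.29 to 0.26 for crXCR1 against NTC. Their median log2 fold change was 0.04, 0.05 and -0.01 in these comparisons, beside 0.00 in each over all genes tested. The values for crSUGP1 against the 2 controls share the crSUGP1 libraries, and those against NTC share the NTC libraries.

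The 3 shoulder genes ranged from -0.05 to 0.05 on the log2 scale for crSUGP1 against NTC, with DCTN3 the furthest from 0. DCTN3 was at 56.4, 56.8 and 60.4 CPM in the NTC libraries, at 55.8, 58.7 and 59.2 in crXCR1 and at 56.3, 58.7 and 52.2 in crSUGP1. The crSUGP1 library of experiment 3 was the lowest of the 9, and the groups overlapped (log2 fold change -0.05, SE 0.06, adjusted p = 0.789 by edgeR against NTC). DCTN1 was at 306 to 334 CPM over all libraries. Its exons overlap those of another protein-coding gene, AC006030.1 (ENSG00000264324), on the same strand at 79.5 CPM, so how their reads were divided is uncertain.

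Of the Arp1 genes, ACTR1A was the steadiest of the 34 in CPM, at 115, 116 and 113 in NTC, 114, 112 and 114 in crXCR1 and 111, 111 and 112 in crSUGP1. The crSUGP1 libraries lay just under the 3 NTC libraries and overlapped crXCR1. The difference from NTC was -0.04 (SE 0.05, adjusted p = 0.793 by edgeR).

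The 3 genes of the barbed-end cap and the 4 of the pointed-end complex all had fitted values slightly above 0 for crSUGP1 against both controls, with medians of 0.07 and 0.08 (log2) against NTC and 0.13 and 0.10 against crXCR1. None of the 7 passed the test. CAPZA2, an alpha subunit of CapZ, was at 38.5, 44.4 and 37.5 CPM in NTC, 40.5, 42.0 and 35.2 in crXCR1 and 42.3, 45.4 and 45.0 in crSUGP1. Each crSUGP1 library was above each crXCR1 library, while the NTC library of experiment 2 lay among them (log2 fold change 0.14, SE 0.09, adjusted p = 0.556 against NTC and 0.17, SE 0.09, adjusted p = 0.374 against crXCR1 by edgeR).

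DCTN4, the p62 subunit, was at 54.2, 60.7 and 55.2 CPM in NTC, 57.5, 58.9 and 54.5 in crXCR1 and 58.9, 61.1 and 66.8 in crSUGP1. The crSUGP1 library of experiment 3 was the highest, and the other crSUGP1 values lay near those of the controls. The log2 fold change was 0.13 (SE 0.07) against either control, with adjusted p = 0.454 against NTC and 0.400 against crXCR1 (edgeR). DCTN6 shares exon sequence with LEPROTL1 on the same strand, which stood at 184 CPM beside 106 for DCTN6, so its level is uncertain.

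The adaptor genes spread more widely than the dynactin genes. Their median log2 fold change was -0.02 for crSUGP1 against NTC, -0.05 against crXCR1 and 0.02 for crXCR1 against NTC. The extremes were -0.35 and 0.19 against NTC and -0.44 and 0.17 against crXCR1. The negative extremes were those of BICDL2, at 20 to 56 counts per library. At 10 CPM or more, the largest absolute values were 0.26 and 0.34, for HOOK2, beside 0.14 and 0.17 for the dynactin gene CAPZA2. Intervals lay inside ±0.5 for 18, 15 and 18 of the 21 adaptor genes tested in the 3 comparisons. Among the 27 of the 34 genes at 10 CPM or more, the median absolute log2 fold change was 0.07 and 0.09 for crSUGP1 against NTC and crXCR1, beside 0.08 and 0.10 over all 11046 genes at that level.

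CCDC88A, the adaptor Girdin, which also binds actin and G proteins, gave the smallest p of the 33 genes against both controls. It was at 88.0, 99.4 and 93.5 CPM in the NTC libraries, at 90.7, 94.5 and 95.1 in crXCR1 and at 75.5, 79.3 and 81.2 in crSUGP1. All 3 crSUGP1 libraries lay below all 6 controls, and the 2 control groups had nearly the same mean. The log2 fold change was -0.25 (SE 0.06, adjusted p = 0.0921) against NTC and -0.25 (SE 0.06, adjusted p = 0.0883) against crXCR1 by edgeR, under the fold threshold and past neither adjusted threshold. Within experiments 1 to 3, the log2 difference was -0.22, -0.33 and -0.20 from NTC and -0.26, -0.25 and -0.23 from crXCR1. In bulk RNA, fewer cells with the transcript and less of it per cell cannot be told apart. It was the 1 gene of the 33 that DESeq2 placed at an adjusted p under 0.05, at 0.00704 against NTC and 0.00920 against crXCR1, still below the fold threshold, and 4.55% and 5.59% of all genes with an adjusted p passed at that level (0.12% for crXCR1 against NTC, where 0 of the genes did). CCDC88A lies on the minus strand of chromosome 2 (GRCh38, chr2:55287842-55419895), and it was described in full after its values had been seen.

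SPDL1 (Spindly) was at 44.4, 52.6 and 44.1 CPM in NTC, 45.5, 46.5 and 47.2 in crXCR1 and 38.0, 39.7 and 43.0 in crSUGP1. The crSUGP1 libraries were again below all 6 controls, with the library of experiment 3 close to them. The log2 fold change was -0.22 (SE 0.08, adjusted p = 0.253) against NTC and -0.21 (SE 0.08, adjusted p = 0.251) against crXCR1 by edgeR. Within experiments it was -0.22, -0.41 and -0.04 from NTC and -0.26, -0.23 and -0.13 from crXCR1, negative each time but small in experiment 3 against NTC. NUMA1, the other mitotic adaptor gene, differed by -0.01 and -0.07 (log2, adjusted p = 0.970 and 0.722).

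CCDC88B, a Girdin relative at a low level here, was at 3.15, 2.71 and 2.75 CPM in NTC, 3.29, 3.15 and 3.44 in crXCR1 and 2.51, 2.49 and 2.68 in crSUGP1, from 189 to 384 counts per library. The crSUGP1 libraries were below all 6 controls, but only narrowly below the NTC libraries of experiments 2 and 3, while the crXCR1 libraries were the highest. The log2 fold change was -0.17 (SE 0.10, adjusted p = 0.532) against NTC and -0.37 (SE 0.10, adjusted p = 0.114) against crXCR1 by edgeR. It too was described in full after its values had been seen.

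CCDC88A, SPDL1 and CCDC88B were the 3 of the 33 genes (9.09%) whose crSUGP1 libraries all lay below the 6 controls, and 6.69% of all genes did so. None of the 33 lay above all 6, against 6.36% of all genes. Set against NTC alone, 4 of 33 lay below without overlap (these 3 and ACTR1A; 8.88% of all genes) and 0 above (8.51%). Against crXCR1, 4 lay below (HOOK2 in place of ACTR1A) and 7 above (DCTN4, DCTN6, CAPZA2, BICD1, NIN, TRAK1 and SPAG9), where 12.2% of all genes lay below and 12.2% above. Between crXCR1 and NTC, CCDC88B lay above (2.71% of all genes) and BICD1 and TRAK1 below (2.01%).

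**Figure D3:**
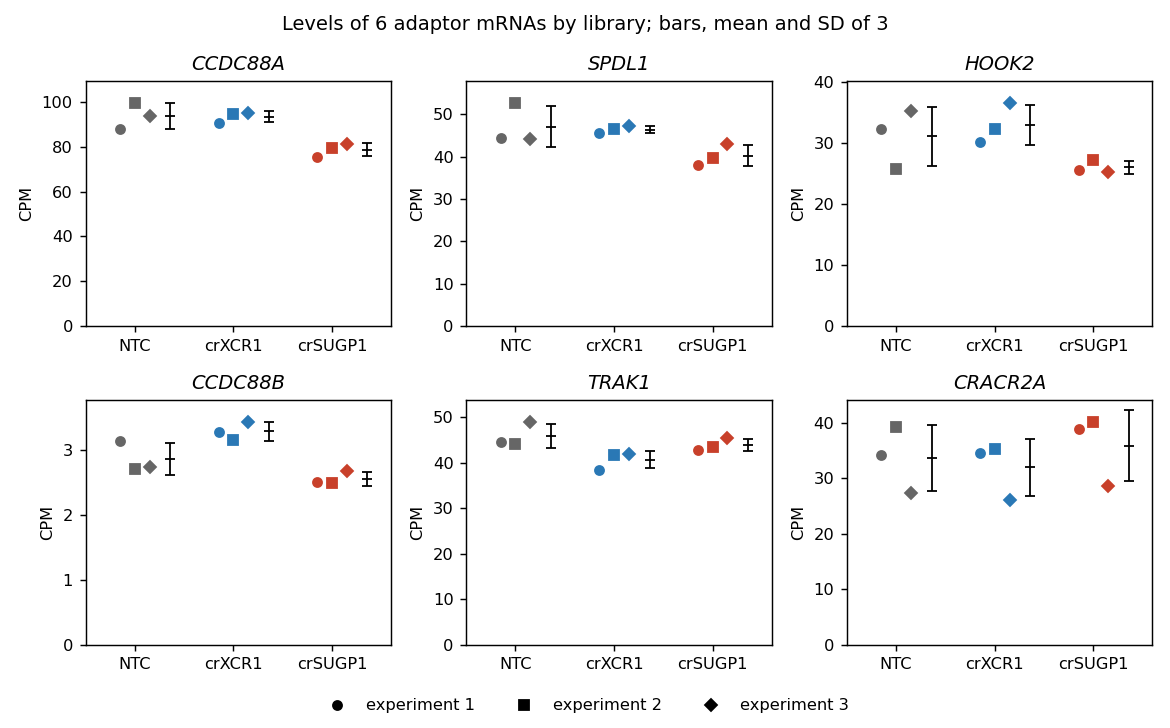
CPM of 6 adaptor genes in each library, with colours for the groups, marker shapes for the experiments and bars for the mean and SD of 3 libraries; each axis starts at 0. The crSUGP1 libraries of CCDC88A, SPDL1 and CCDC88B lie below all 6 controls, while CRACR2A is lowest in experiment 3 in every group.

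HOOK2, a relative of the endosomal adaptor HOOK3 that has been placed at the centrosome, was at 32.3, 25.8 and 35.2 CPM in NTC, 30.1, 32.3 and 36.4 in crXCR1 and 25.5, 27.2 and 25.2 in crSUGP1. The crSUGP1 libraries were below all crXCR1 libraries, but the NTC library of experiment 2 lay among them. The log2 fold change was -0.26 (SE 0.12, adjusted p = 0.374) against NTC and -0.34 (SE 0.12, adjusted p = 0.193) against crXCR1 by edgeR. Within experiments, the difference from NTC was -0.34, 0.08 and -0.48 in experiments 1 to 3.

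HOOK2 lies on the same arm of chromosome 19 as SUGP1 and nearer its end (GRCh38, chr19:12763003-12872740, minus strand; SUGP1 at chr19:19276018-19320509). The 523 genes at 1 CPM or more on the telomeric side of SUGP1 had a median log2 fold change of -0.18 for crSUGP1 against NTC, with 93.7% of them lower, and -0.19 against crXCR1, with 94.8% lower. For crXCR1 against NTC the same genes had a median of 0.01. HOOK2, at -0.26 and -0.34, had 29.6% and 21.6% of these genes below it in the comparisons with NTC and crXCR1. Its exons also overlap those of JUNB on the opposite strand (54.1 CPM; log2 difference 0.08 and 0.04, adjusted p = 0.906 and 0.928 by edgeR), and the strand of counting is not given in the sources used here.

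TRAK1 stands in the same position with respect to XCR1, on the short arm of chromosome 3 (GRCh38, chr3:42013802-42225890, plus strand; XCR1 at chr3:46017007-46027487). It was at 44.6, 44.1 and 49.0 CPM in NTC, 38.5, 41.7 and 41.9 in crXCR1 and 42.9, 43.4 and 45.5 in crSUGP1. The crXCR1 libraries were below all 6 others. For crXCR1 against NTC the log2 fold change was -0.17 (SE 0.06, unadjusted p = 0.0219, adjusted p = 1 by edgeR), and TRAK1 was the 1 gene of the 33 with an unadjusted p under 0.05 there. The 225 genes on the telomeric side of XCR1 had a median of -0.19 in this comparison, 94.2% of them lower, and 56.4% lay below TRAK1. Against crXCR1, TRAK1 was 0.11 higher in crSUGP1 cells, and these 225 genes had a median of 0.22. The cause of these arm-wide shifts, and their part in the values of HOOK2 and TRAK1, was not tested.

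**Figure D4:**
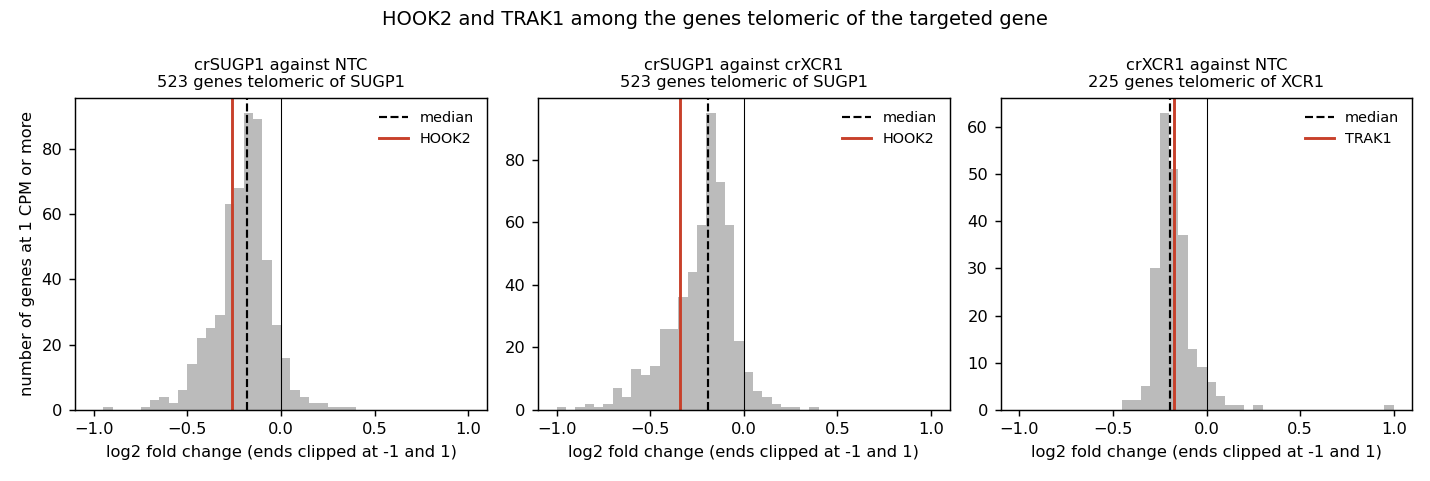
Number of genes by log2 fold change, for the 523 genes at 1 CPM or more telomeric of SUGP1 (left and middle panels) and the 225 telomeric of XCR1 (right panel). Dashed lines mark the medians (-0.18, -0.19 and -0.19) and red lines HOOK2 (-0.26 and -0.34) and TRAK1 (-0.17). HOOK2 against crXCR1 lies below the lower quartile of its genes (-0.31), and the other red lines lie between the quartiles.

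Among the BICD family, BICDL2 had the largest difference but the fewest counts, 20 to 56 per library. It was at 0.369, 0.353 and 0.434 CPM in NTC, 0.280, 0.447 and 0.502 in crXCR1 and 0.358, 0.248 and 0.298 in crSUGP1. The groups overlapped, with log2 fold changes of -0.35 (SE 0.25, adjusted p = 0.631) and -0.44 (SE 0.25, adjusted p = 0.427) by edgeR against NTC and crXCR1. The interval against NTC ran from -0.92 to 0.22, which includes the threshold size. Its exons overlap those of THOC6 on the opposite strand (62.5 CPM beside 0.365 for BICDL2), so its level is uncertain.

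BICD2 was at 72.7, 77.6 and 62.9 CPM in NTC, 77.2, 73.0 and 65.3 in crXCR1 and 88.3, 86.7 and 67.1 in crSUGP1. In each experiment the crSUGP1 library was the highest of the 3, and in each group the library of experiment 3 was the lowest. The log2 fold change was 0.19 (SE 0.12, adjusted p = 0.572) against NTC and 0.17 (SE 0.12, adjusted p = 0.532) against crXCR1 by edgeR. BICD1 and BICDL1 differed by -0.02 and 0.09 from NTC.

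Of the EF-hand adaptors, NINL (Nlp), a relative of ninein, was at 27.3, 25.0 and 32.4 CPM in NTC, 26.5, 28.2 and 34.6 in crXCR1 and 25.0, 23.9 and 28.5 in crSUGP1. The groups overlapped, and the library of experiment 3 was the highest in every group. The log2 fold change was -0.13 (SE 0.13, adjusted p = 0.743) against NTC and -0.21 (SE 0.13, adjusted p = 0.463) against crXCR1 by edgeR. NIN, RAB11FIP3, which binds Rab11 on recycling endosomes, and CRACR2A, a large Rab GTPase that binds calcium, differed by 0.09, 0.00 and 0.10 from NTC.

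The 6 mitochondrial, lysosomal and JIP adaptor genes ranged from -0.07 to 0.09 (log2) against NTC and from -0.15 to 0.12 against crXCR1. SPAG9, which tethers lysosomes to dynein, was the furthest from NTC, at 83.4, 94.7 and 83.9 CPM in NTC, 85.3, 87.1 and 83.0 in crXCR1 and 92.3, 93.9 and 91.5 in crSUGP1. Each crSUGP1 library was above each crXCR1 library, while the NTC library of experiment 2 was the highest of the 9 (log2 fold change 0.09, SE 0.06, adjusted p = 0.626 against NTC by edgeR).

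Some of the genes differed between experiments. With condition and experiment in 1 edgeR fit, the experiment term had an adjusted p of at most 0.05 for 8 of 33 genes, beside 40.8% of all genes. CRACR2A had the smallest p: it was at 34.2, 39.3 and 27.5 CPM in NTC, 34.6, 35.3 and 26.1 in crXCR1 and 38.9, 40.2 and 28.6 in crSUGP1. Every library of experiment 3 was below every library of experiments 1 and 2, by 0.44 on the log2 scale (adjusted p = 6.93e-06 by edgeR's quasi-likelihood test). This gene, like BICD2, was described in full after its values had been seen.

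The other 7 were BICD2 (-0.28 in experiment 3 against the other 2, adjusted p = 0.000557), NINL (0.29, adjusted p = 0.000523), CCDC88C (-1.12, adjusted p = 0.00564), CAPZA1 (-0.21, adjusted p = 0.00670), ACTR1B (0.17, adjusted p = 0.0166), NUMA1 (0.14, adjusted p = 0.0291) and HAP1 (0.31, adjusted p = 0.0424), all on the log2 scale by edgeR. CCDC88C, the Girdin relative Daple, rests on 8 to 28 counts per library: it was at 0.211, 0.395 and 0.109 CPM in NTC, 0.303, 0.293 and 0.152 in crXCR1 and 0.232, 0.223 and 0.113 in crSUGP1. The library of experiment 3 was the lowest in each group. Without the 3 libraries of experiment 3, 0 of the 33 genes were called, and 0.541% of all genes. Without the NTC, crXCR1 or crSUGP1 library of experiment 3 alone the count was 4, 4 and 14, beside 30.9%, 31.1% and 44.1% of all genes. DESeq2's likelihood ratio test gave 6 of the 33, beside 33.8% of all genes.

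**Figure D5:**
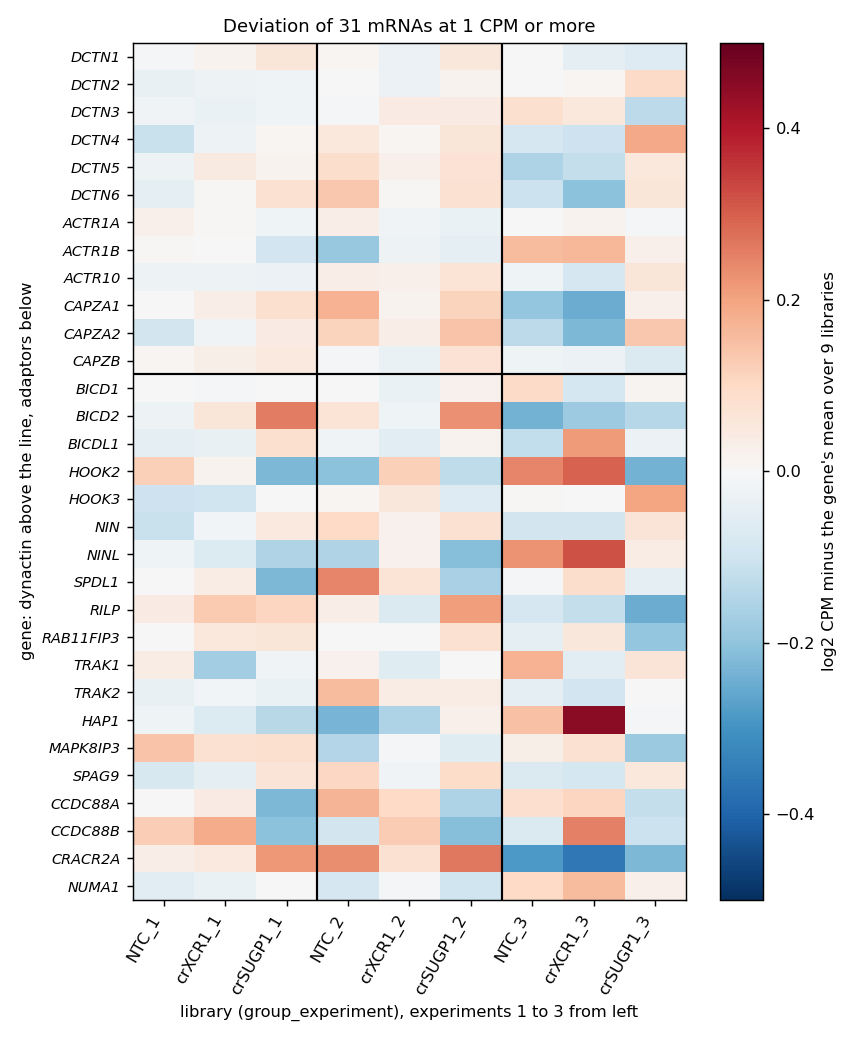
Log2 CPM of each library minus the gene's mean over the 9 libraries, for the 31 genes at a mean of 1 CPM or more, with libraries grouped by experiment. CRACR2A and BICD2 are low in every library of experiment 3 and NINL is above its mean in all 3 of them, while CCDC88A is low in the crSUGP1 library of every experiment.

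Same-numbered libraries were taken to share an experiment, and the comparisons were also fitted with the experiment as a block. With the block and the fold threshold, 0 of 33 genes were called in any comparison (2.85%, 3.9% and 0.00475% of all genes). With the block and the adjusted p alone, a rule added after seeing the data, 4 of 33 passed against NTC (15.7% of all genes) and 8 of 33 against crXCR1 (21.7%), and 0 between crXCR1 and NTC (0.0142%). The 4 were CCDC88A (adjusted p = 0.00197), SPDL1 (0.0226) and HOOK2 (0.0496), all lower in crSUGP1 cells, and BICD2 (0.0295), which was higher. Against crXCR1, these 4 passed (0.00164, 0.0255, 0.00948 and 0.0382, in the same order), as did CCDC88B (0.0104) and NINL (0.0182), lower, and CAPZA2 (0.0428) and CRACR2A (0.0319), higher, by edgeR's quasi-likelihood test. The shares of the genes that passed, 12.1% and 24.2%, lay close to those of all genes.

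The balance between paralogs was compared in pairs, in a design that could hardly pass a test. For 9 of 10 pairs (HOOK1 with HOOK3 was left out), the log2 ratio of the counts in each library was compared between the 3 crSUGP1 libraries and the 6 controls with an exact two-sided permutation test. The largest difference with well-measured genes was for HOOK2 over HOOK3, where the mean log2 ratio was -0.30 ± 0.19 (SD, n = 3) in crSUGP1 cells and 0.07 ± 0.19 (SD, n = 6) in the controls (exact permutation p = 0.0476, adjusted p = 0.429 over the 9 pairs). The smallest p this design allows is 0.0238, which in 1 pair alone adjusts to 0.214, so that 5 of the 9 pairs would have had to reach it for any to pass. BICDL1 over BICDL2 differed by 0.42, at the low counts of BICDL2 (exact permutation p = 0.0952, adjusted p = 0.429), and the ratio of the Arp1 genes ACTR1A and ACTR1B by 0.03.

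Lists of genes whose products work with dynactin and the adaptors were described in the same way. Of 10 dynein-1 subunit genes tested, 1 fell in crSUGP1 cells: DYNC1I2, an intermediate chain gene and thus the part of dynein that binds p150Glued. Its mRNA fell by 0.78 against NTC (log2, SE 0.06, adjusted p = 0.000296) and 0.71 against crXCR1 (SE 0.06, adjusted p = 0.000508 by edgeR). The paper reports that the protein signal of DYNC1I2, by immunofluorescence, did not change in SUGP1-edited cells. None of 23 cargo-side partners, such as Rab GTPases, Miro proteins and FHF subunits, was called in any comparison, and as a list they had medians of 0.06 (log2, crSUGP1 against NTC) and 0.05 (against crXCR1). The same held for 7 plus-end proteins that bring dynactin to microtubule tips (0.08 and 0.10), for 11 actin-side partners of the filament and cap (0.10 and 0.12) and for 11 relatives of the adaptors (-0.03 and -0.02). The background for these counts is the 0.783% and 0.774% of all genes given above. The list medians were not adjusted for the arm-wide shifts near the cut genes. RAB11B, a cargo-side partner, is among the genes telomeric of SUGP1, and the positions of the other list genes were not taken into account.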

How the data were processed

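The authors prepared polyA RNA libraries from 9 flasks of U-2 OS cells, trimmed the reads, used STAR 2.7.9a to align them to GRCh38 and counted exonic read pairs per gene in SeqMonk. The values they deposited are raw counts, with no normalization. The submitters' processing notes also name FastQC 0.11.5, Trim Galore 0.6.7, cutadapt 2.4, DESeq2 1.32.0 and R 4.1.0. Whether counting used strand is not given in the sources used here, so overlapping genes may share reads, and gene counts do not hold splicing.

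From the 38179 entries, 33 repeats of a gene were dropped (3 with identical counts and 30 at 0). The 21071 genes that passed a log2 CPM of -2 in 1 or more libraries were tested with edgeR 4.0.16 (R 4.3.3): TMM scaling, quasi-likelihood fit over all 9 libraries, condition as the sole term, 6 residual degrees of freedom. A call needed both a log2 fold change of 0.5 or more in size and a p of 0.05 or less after Benjamini-Hochberg adjustment over all genes tested. Standard errors and 95% intervals come from the same fit. Levels per kilobase used the canonical transcript of each gene in GENCODE v44, which holds all 34 genes. Paralog ratios were tested by exact permutation of libraries with scipy. Libraries held 68712738 to 107952835 counts, so genes at a few counts per library carry the widest errors. The reads carry no molecular identifiers.

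The paper states that the RNA came from 3 independent experiments, each with all 3 guides. The numbers in the sample titles were taken to mark these experiments. Over 16792 genes, the deviations of same-numbered libraries from their group means correlated at 0.498 to 0.902 (9 pairs). With different numbers they correlated at -0.854 to 0.660 (18 pairs), so the ranges overlapped. Library 1 of crXCR1 and library 2 of crSUGP1 reached 0.66, above 0.498 for library 2 of each. This check sets experiment 3 apart but does not clearly separate experiments 1 and 2. A second fit took the experiment as a block (4 residual degrees of freedom). Replicates differed by more than sampling noise (chi-square per degree of freedom 5.95 to 57.8).

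The members and gene lists were chosen with earlier results of these data known. All 34 genes are named. Values of every library are given for genes called with a log2 change of 0.5 or more in size in a comparison or by the experiment term, for those between a cut gene and the end of its chromosome arm, for the gene furthest from NTC in each subgroup, and for paralogs past the test. Other genes given in full were chosen after their values were seen. Alternatives were DESeq2 1.42.0, RLE factors, library totals, other expression filters, the adjusted p alone, the block, fits to 6 libraries, and fits without each library or experiment. In data simulated for crSUGP1 against NTC over 20852 genes, edgeR recovered 58.2%, 89.6% and 100% of genes changed by 0.6, 1 and 2 (log2). It also called 11 unchanged genes. DESeq2 recovered 73.1%, 94.0% and 100%, and called 31 unchanged genes. The simulated libraries were drawn independently, with no experiment effect, and only genes at 1 CPM or more were changed. The recovery therefore does not cover genes below 1 CPM, such as BICDL2 and CCDC88C, or differences shared within an experiment.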

Additional observations from a re-analysis of the deposited data

How the results depend on the processing

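The number of dynactin and adaptor genes called stayed at 0 of 33 in all 3 comparisons. This held under DESeq2, RLE factors, library totals, other filters, the adjusted p alone, the block, and fits to 6 libraries. The range was 0 to 0 over the fits without a library or an experiment. Over all genes, RLE factors called 168 against NTC and 158 against crXCR1, and library totals 166 and 156. The other filters called 171 and 164, or 161 and 152. Without experiment 1 or 2, only 2 and 0 of all genes were called against NTC, and 1 and 2 against crXCR1. For crXCR1 against NTC, at most 1 gene was called under any of these settings. Fits that call so few genes could hardly call any of the 33, so their 0 says nothing about stability. Adding the replicate block (the experiment) with the adjusted p alone, chosen after seeing the data, gave 4 against NTC, 8 against crXCR1 and 0 for crXCR1 against NTC. The block with the fold threshold changed no call of these genes. Genes called by the experiment term ranged from 0 to 14 over the fits that left out a library or an experiment: 0 without experiment 3 (114 of all 21071 genes), 4 without its NTC library (6512), 4 without its crXCR1 library (6547) and 14 without its crSUGP1 library (9294). DESeq2's likelihood ratio test gave 6 in place of 8 (7130 of all genes). The adaptor median against crXCR1, -0.05, ranged from -0.077 to 0.001, with -0.018 without the crSUGP1 library of experiment 3 and 0.001 without the crXCR1 library of experiment 3. The cause was not tested. The other medians ranged, without each library, from 0.023 to 0.068 (dynactin) and -0.046 to -0.015 (adaptors) against NTC, from 0.034 to 0.074 (dynactin) against crXCR1, and from -0.023 to 0.001 (dynactin) and -0.004 to 0.037 (adaptors) for crXCR1 against NTC. For the paralog pairs, permutations within experiments (replicate block) gave a lowest adjusted p of 0.167 by exact permutation, where the smallest raw p possible was 0.037, and without a crSUGP1 library it was 0.0714. Fits this small could hardly pass, so that 0 pairs passed says nothing about stability.

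Over all genes, calls for crSUGP1 ranged widely: from 165 to 601 against NTC and from 163 to 821 against crXCR1 with the block, to 243 and 271 with DESeq2, to 104 and 102 with 6 libraries, and to 265 and 301 with the adjusted p alone. Without experiment 1, 2 or 3 the counts were 2, 0 and 419 against NTC and 1, 2 and 491 against crXCR1. Scaling moved the median of all genes by at most 0.02. BICDL2, CCDC88C and HOOK1 rest on 20 to 56, 8 to 28 and 2 to 12 counts per library.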
